A study of Mus musculus with 2 samples.

Results

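The 10 genes followed here belong to the NF-kB system and were measured in untransformed mouse myeloid progenitors. They are the subunit genes Rela, Rel, Relb, Nfkb1 and Nfkb2, and the inhibitor genes Nfkbia, Nfkbib, Nfkbie, Nfkbiz and Tnfaip3. They were chosen by name, and all 10 matched a gene symbol exactly among the 23988 genes of the deposited table. The cells came from Lin- (lineage-depleted) bone marrow of C57BL/6 mice, kept for 7 days in culture with IL3, SCF and IL6 and given no other treatment. The labels hold 1 group of 2 RNA-seq libraries, replicate 1 and replicate 2, do not say whether these came from separate cultures or animals, and describe no cells sorted after culture. Leukaemia cells with HOXA9 and MEIS1, named in the series title, were not analysed here. What can be read from these libraries is at what level these untransformed cells carried the transcripts of each subunit and inhibitor, and how far the libraries differed.

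NF-kB is a family of dimeric transcription factors that switch on genes of inflammation and cell survival. In resting cells IkB proteins hold the dimers in the cytoplasm. Signals from receptors for TNF, IL-1 or microbial products activate the IKK kinases, which mark the IkB proteins for destruction, and the freed dimers enter the nucleus (the classical arm). A slower alternative arm runs through the kinase NIK and frees dimers of RelB and the processed product of Nfkb2. Several subunit and inhibitor genes are themselves textbook targets of NF-kB, so the system feeds back on its own transcripts. In myeloid cells it is best known for the response of macrophages and neutrophils to infection.

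Values are RPKM, read numbers scaled to gene length and library size, so that genes of different length can be set side by side as far as the lengths used are right. From the steps between low values, the effective sizes of the libraries were 29941063 reads (replicate 1) and 28793666 (replicate 2). A kilobase holding 1 read then had 0.0334 and 0.0347 RPKM. A gene at 1 RPKM or more in both libraries is called detected. No test was run, since the smallest p of an exact sign-flip permutation over 2 libraries is 0.5. Differences are set against the spread of all 10896 genes above a minimum mean of 1 RPKM. The SD of 1 library over these genes was 0.39 on the log2(RPKM + 1) scale.

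Markers of several cell types were detected. Beside the counts that follow, 43.5% of all genes in the table were detected. All 9 neutrophil markers were detected, and their summed level was 57174 RPKM in replicate 1 and 47002 in replicate 2. Without S100a8 and S100a9 the other 7 summed to 13056 and 15059 RPKM. Monocyte markers summed to 699 and 1768 RPKM with 5 of 6 detected, macrophage markers to 1098 and 2951 with 7 of 8, and mast cell markers to 270 and 1379 with 5 of 8. Most of the monocyte sum of replicate 1 was Ly6c2 (611 RPKM), and most of its macrophage sum was Lyz2 (442) and Ctsd (461). Cx3cr1 and C1qa, the genes of these 2 lists not detected, stood at 0.202 and 0.931 there. In replicate 1 most of the mast cell sum was Cpa3 (221 RPKM), whereas Mcpt4, Tpsb2 and Tpsab1 stood at 0.195, 0.666 and 0.0298. The mast cell list shares Kit with the progenitor list and Fcer1a with the basophil list. Basophil markers summed to 1022 and 2014 RPKM with all 4 detected. Of the progenitor markers Kit, Cd34, Myb, Gata2, Flt3 and Ly6a, 5 were detected, Flt3 being the exception, and they summed to 222 and 289 RPKM. B cell markers summed to 2.85 and 5.59 RPKM with Cd79b alone detected and Ms4a1 and Pax5 at 0 in both libraries. T and NK cell markers summed to 0.895 and 1.10 RPKM with none of 6 detected and Cd3e and Ncr1 at 0. In such bulk samples fewer cells of a type and less RNA per cell cannot be told apart. Nor can a mixture of cell types be told from cells that carry markers of several types.

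Because several of these genes are textbook targets of NF-kB, their promoters were searched for its motif. RefSeq promoter sequences (assembly GRCm38.p6, 250 bases before to 50 after the gene start) were at hand for 7 of the 10 genes. The windows below are shown because they hold every match to the 10-letter NF-kB consensus motif at the first listed start of its gene, searched on both strands, with overlapping matches allowed. Capitals mark the bases of the matches, and each line reads 5′ to 3′ along the gene's strand.

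Nfkb2, chr19:46304673-46304760, plus strand: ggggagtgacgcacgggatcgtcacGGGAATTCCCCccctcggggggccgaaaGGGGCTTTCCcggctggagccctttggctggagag
Rel, chr11:23771026-23771086, minus strand: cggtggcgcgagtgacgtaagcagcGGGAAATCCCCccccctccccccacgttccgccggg
Nfkbia, chr12:55492642-55492701, minus strand: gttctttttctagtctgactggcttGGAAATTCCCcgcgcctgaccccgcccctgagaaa
Nfkbie, chr17:45555569-45555628, plus strand: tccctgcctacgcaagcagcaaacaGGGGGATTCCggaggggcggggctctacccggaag
Tnfaip3, chr10:19015501-19015560, minus strand: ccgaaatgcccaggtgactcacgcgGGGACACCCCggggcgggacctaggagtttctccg
Tnfaip3, chr10:19015388-19015447, minus strand: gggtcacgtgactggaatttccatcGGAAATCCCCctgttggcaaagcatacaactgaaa

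At least 1 match was found in the promoters of 5 of the 7 genes, Nfkb2, Rel, Nfkbia, Nfkbie and Tnfaip3. Over all genes of the promoter table the share was 5.14% (1388 of 27025), and over genes above the minimum mean it was 6.06% (499 of 8232). In Nfkbia the match began 29 bases before the gene start, and the matches nearest the start began 12 bases before it in Tnfaip3 and 11 bases before it in Nfkb2. The match began 106 bases before the start in Nfkbie and 92 in Rel. At 2 further starts listed for Nfkb2, matches were found too, whereas the other start listed for Tnfaip3 had none. The promoters of Rela and Nfkbib held no match. The window of Rela, shown for contrast, has the following sequence.

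Rela, chr19:5637291-5637590, plus strand: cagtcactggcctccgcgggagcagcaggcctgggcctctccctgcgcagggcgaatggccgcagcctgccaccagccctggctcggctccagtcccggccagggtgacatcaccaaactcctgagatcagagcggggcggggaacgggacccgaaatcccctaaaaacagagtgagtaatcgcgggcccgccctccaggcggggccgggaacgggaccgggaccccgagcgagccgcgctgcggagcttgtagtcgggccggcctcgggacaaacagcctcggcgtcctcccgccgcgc

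A match describes these letters and is not evidence of a bound site, and a window without one says only that these letters are not in it. At the first listed starts, the promoters of all 7 genes lay above the median G and C content of the table, 52.7%. They ranged from 56.3% in Nfkbib to 71.3% in Rela and 75% in Rel.

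All 10 genes were detected, against 43.5% of all genes in the table, but their levels spanned a wide range. The highest member stood 31.2 times above the lowest in replicate 1 and 16.5 times in replicate 2. Rela, Nfkb1 and Nfkbia formed a high group at 44.0 RPKM or more in each library. The other 7 lay between 2.55 and 12.0 RPKM. The 10 genes summed to 252 RPKM in replicate 1 and 259 in replicate 2.

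**Figure D1:**
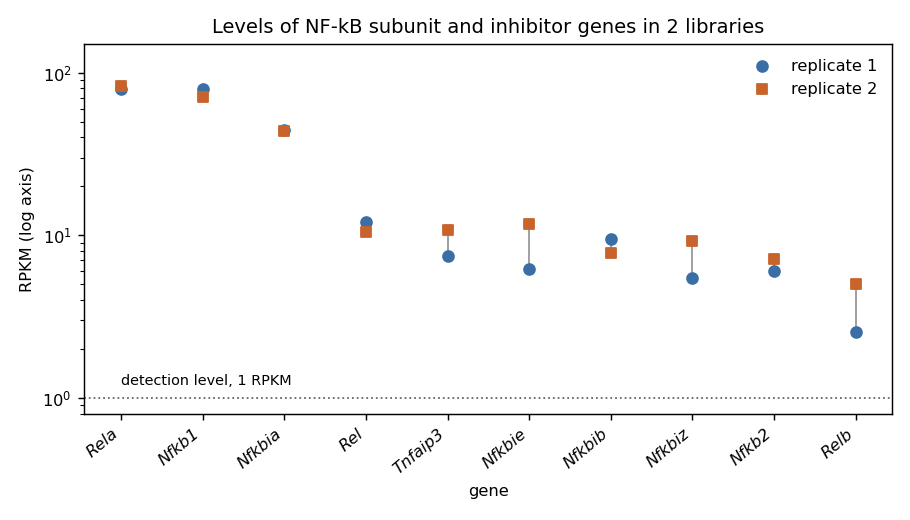
RPKM of the 10 genes on a log axis, ordered by mean level, with replicate 1 as circles and replicate 2 as squares, and a grey line joining the 2 values of a gene. Rela, Nfkb1 and Nfkbia sit at 44.0 to 82.7 RPKM, and the dotted line marks the detection level of 1 RPKM.

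Among the subunits with an activation domain, Rela was by far the highest. Rela, the main activating subunit of the classical arm, had 79.6 RPKM in replicate 1 and 82.7 in replicate 2 (mean 81.1 ± 2.19, SD, n = 2), a higher mean than 92.6% of the genes above 0. The 2 libraries were thus close together, with a ratio of replicate 2 over replicate 1 of 1.04 (95% counting interval 0.982 to 1.10). Rel, which encodes the c-Rel subunit known from lymphocytes and activated myeloid cells, stood at 12.0 and 10.4 RPKM (ratio 0.865, interval 0.723 to 1.03). Relb, the activating subunit of the alternative arm, was the lowest of the 10 genes at 2.55 and 5.01 RPKM. Its value in replicate 2 was 1.97 times that in replicate 1, with a counting interval of 1.65 to 2.35. Rela exceeded Rel 6.61-fold in replicate 1 and 7.94-fold in replicate 2. On the log2(RPKM + 1) scale the difference was 2.75 ± 0.17 (SD, n = 2), beyond the spread by the rule used here, which asks for the same sign in both libraries and a mean over 2 SD.

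Of the genes of the precursor subunits, that of the classical arm was also the higher. Nfkb1, whose product is cut to the DNA-binding partner of RelA and whose uncut form also acts as an inhibitor, had 79.2 RPKM in replicate 1 and 70.5 in replicate 2 (mean 74.8 ± 6.14, SD, n = 2). Its ratio of replicate 2 over replicate 1 was 0.890 (interval 0.853 to 0.929). Nfkb2, the precursor of the alternative arm, stood at 6.01 and 7.17 RPKM, with a ratio of 1.19 (interval 1.11 to 1.29). Nfkb1 exceeded Nfkb2 13.2-fold in replicate 1 and 9.83-fold in replicate 2 as deposited, and 7.17-fold and 5.35-fold with the lengths of annotated transcripts. The levels of Rela and Nfkb1, whose products form the best known dimer, lay close to each other, at a Rela to Nfkb1 ratio of 1.005 and 1.17, and their difference was within its spread (0.12 ± 0.16 on the log2 scale, SD, n = 2).

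Rela and Nfkb1 together held 88.5% of the summed RPKM of the 5 subunit genes in replicate 1 and 87.1% in replicate 2. Relb and Nfkb2 together held 4.77% and 6.93%. The mean of log2(RPKM + 1) over Rela, Rel and Nfkb1, the subunits of the classical arm, exceeded that over Relb and Nfkb2 by 3.14 in replicate 1 and 2.54 in replicate 2. The mean difference of 2.84 ± 0.42 (SD, n = 2) was beyond the spread. It was 2.66 when the lengths of annotated transcripts replaced those of the table, and 3.68 with medians in place of means.

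Of the IkB genes, Nfkbia was the highest and the steadiest. Nfkbia encodes IkB alpha, the inhibitor that is destroyed and resynthesised fastest after a signal, and it had 44.2 RPKM in replicate 1 and 44.0 in replicate 2. The ratio between the libraries was 0.994 (interval 0.957 to 1.03), the closest to 1 of the 10 genes. Nfkbib, the gene of IkB beta, stood at 9.49 and 7.72 RPKM, the lowest ratio of replicate 2 over replicate 1 among the members (0.814, interval 0.738 to 0.898). Nfkbie, the gene of IkB epsilon, stood at 6.22 and 11.7 RPKM (ratio 1.89, interval 1.66 to 2.15). The order of these 2 genes changed between libraries, since Nfkbie was 0.655 times Nfkbib in replicate 1 and 1.52 times in replicate 2. Nfkbia held 73.8% and 69.3% of the summed RPKM of the 3 genes.

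The remaining inhibitors were both higher in replicate 2. Nfkbiz encodes a nuclear IkB protein that works with NF-kB on a second wave of target genes such as those of cytokines. It had 5.46 RPKM in replicate 1 and 9.22 in replicate 2 (ratio 1.69, interval 1.49 to 1.92). Tnfaip3 encodes a ubiquitin-editing enzyme that shuts down signals from TNF and Toll-like receptors. It stood at 7.49 and 10.7 RPKM (ratio 1.43, interval 1.31 to 1.57). Relative to Nfkbia, Tnfaip3 was 0.169 in replicate 1 and 0.245 in replicate 2.

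The order of the members by mean log2(RPKM + 1) ran from Rela through Nfkb1, Nfkbia, Rel, Tnfaip3, Nfkbie, Nfkbib, Nfkbiz and Nfkb2 to Relb. Of the 9 pairs of neighbours in this order, 2 differed beyond their spread: Nfkb1 above Nfkbia by 0.75 ± 0.11 and Nfkbia above Rel by 1.89 ± 0.13 (SD, n = 2). The neighbours from Rel down to Nfkb2 were not told apart, and the step from Nfkb2 to Relb, 0.71 ± 0.38, was also within 2 SD. Of all 45 pairs, 32 differed beyond their spread. The share for pairs of other genes was not computed, so this count only describes the levels of these members.

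The order rests on the gene lengths behind the RPKM values, which were read from the table for these 10 genes. The smallest length at which both libraries gave whole reads was 4118 bases for Nfkbia, whereas the exons of Nfkbia in GENCODE vM21 cover 1610 bases, so the length used was at least 2.56 times that of the annotated exons if the library sizes given above hold. The same held for Nfkb2, with 6790 bases against 4584, and for Nfkbib, with 3292 against 2169. For the other 7 genes the smallest length did not exceed the annotated exons. With lengths of the longest annotated transcript, a choice made after seeing the data, Nfkbia stood at 115 RPKM in each library, above Rela at 89.7 and 93.2 and Nfkb1 at 76.0 and 67.7. For this the multiple of the smallest length that came nearest the annotated one was taken, and it was above 1 for 6 members, Rela and Nfkb1 among them. Their values were thus kept close to the deposited ones by construction, and the order under annotated lengths is no independent check. The mean of log2(RPKM + 1) over the 3 IkB genes differed from that over the 5 subunits by -0.29 in replicate 1 and -0.24 in replicate 2 as deposited (mean -0.26 ± 0.03, SD, n = 2), beyond the spread. With medians in place of means it was -0.31 and 0.16, opposite in sign, and no longer beyond the spread. With annotated lengths the difference was 0.38 ± 0.04, so the direction of this comparison is not settled. Comparisons of 1 gene between libraries do not depend on its length.

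Most members differed little between the libraries, and the larger differences were all towards replicate 2. In all, 6 of 10 were higher in replicate 2, against 44.1% of all genes above the minimum mean of 1 RPKM. At 2-fold or more, 0 of 10 members were higher in replicate 2, against 7.65% of all genes, and 0 of 10 in replicate 1, against 1.24%. At 1.5-fold or more, a threshold chosen after seeing the data, Relb, Nfkbie and Nfkbiz were higher in replicate 2, which is 3 of 10 members against 13.9% of all genes, and 0 of 10 were higher in replicate 1, against 6.18%. The median log2 ratio of the members was 0.14 with a pseudocount of 1, against -0.05 over all genes. Nfkbie at 0.82, Relb at 0.76 and Nfkbiz at 0.66 were larger in size than 91.4%, 90.2% and 87.6% of all genes on this scale. Tnfaip3 at 0.47 exceeded 76.7%, while Rela at 0.05 and Nfkbia at -0.01 exceeded 11.9% and 1.92%.

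**Figure D2:**
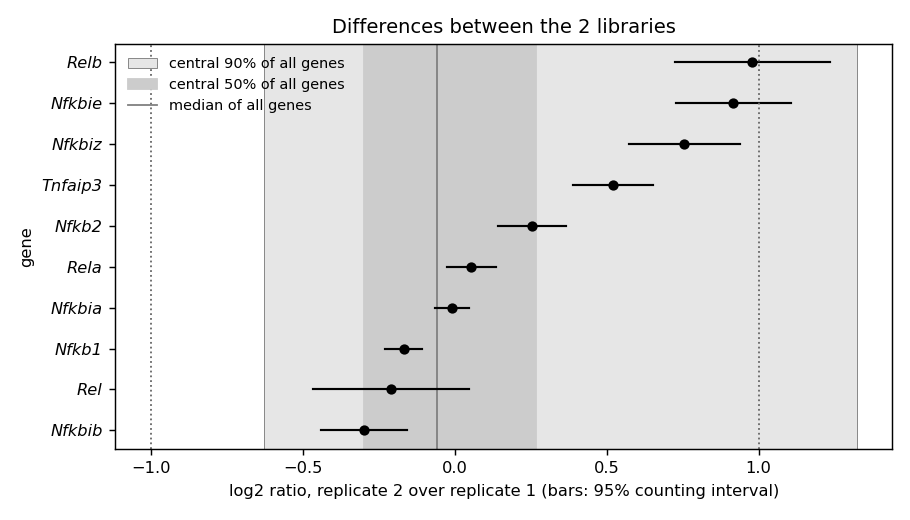
Log2 ratio of replicate 2 over replicate 1 for the 10 genes, computed from read numbers, with bars for the 95% interval that covers counting error alone. Dark and light bands hold the central 50% and 90% of all genes, and dotted lines mark 2-fold. Relb, Nfkbie and Nfkbiz lie highest, at 0.98, 0.92 and 0.76, and all 10 points lie within the light band.

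Counting error was small beside these differences for most members. The smallest read numbers that fit were 197 and 373 for Relb, 362 and 657 for Nfkbie, 396 and 643 for Nfkbiz and 832 and 1148 for Tnfaip3. True numbers may be multiples of these, which would narrow the intervals. The interval of the ratio lay above 1 for 5 members, Relb, Nfkbie, Nfkbiz, Tnfaip3 and Nfkb2, and below 1 for 2, Nfkb1 and Nfkbib. It held 1 for Rela, Rel and Nfkbia. An interval away from 1 says that the 2 libraries differed in these reads, and with 1 library on each side it says nothing about cultures. Except for Nfkbia, the members kept their direction with a pseudocount of 0.1, with libraries rescaled to an equal sum and with the median of all genes set to 0. Nfkbia turned from -0.01 to 0.05 under the last of these.

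Set beside the promoters shown above, the genes with a consensus match had log2 ratios of 0.82 (Nfkbie), 0.47 (Tnfaip3), 0.22 (Nfkb2), -0.01 (Nfkbia) and -0.19 (Rel), and the 2 without had 0.05 (Rela) and -0.27 (Nfkbib). The ranges of the 2 sets overlapped. Relb (0.76), Nfkbiz (0.66) and Nfkb1 (-0.17) had no promoter at hand and are not in either set. With 5 genes against 2 and these left out, nothing is read from the overlap.

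**Figure D3:**
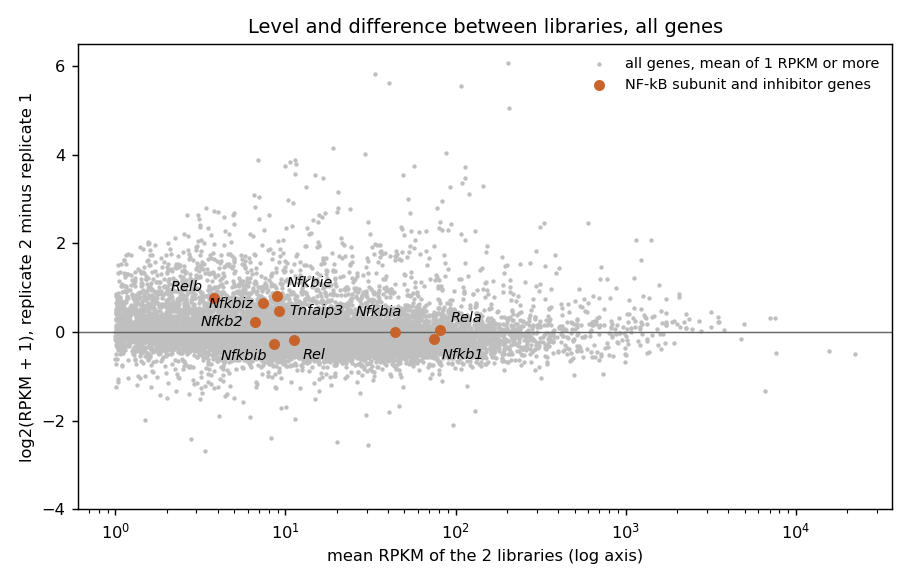
Mean RPKM of the 2 libraries (log axis) against the difference of log2(RPKM + 1), replicate 2 minus replicate 1, for all 10896 genes above the minimum mean (grey) and the 10 NF-kB genes (orange). The 3 highest members, Rela, Nfkb1 and Nfkbia, lie near 0, and Nfkbie, Relb and Nfkbiz lie in the upper part of the cloud at low to middle levels.

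The other genes of the pathway were described in the same way, from lists sorted by role. As for the members, their levels and detection calls rest on the lengths used. The smallest length for Tnf was 5143 bases against 1639 in annotated exons, whereas for Il1b it was 658 against 1907. Of 87 such genes in the table, from IkB-like genes to ligands, 74 were detected, against 43.5% of all genes in the table. The minimum mean of 1 RPKM left 77, with a median log2 ratio of 0.12. By the 2-fold rule 11 of these (14.3%) were higher in replicate 2, against 7.65% of all genes, and 0 in replicate 1, against 1.24%. The 11 include 4 receptor and 3 ligand genes. The shares of 7.65% and 1.24% also stand beside the 2-fold counts of each list below.

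All 6 genes of other IkB-like and NF-kB-binding proteins were detected, against 43.5% of all genes in the table. None differed 2-fold, against 7.65% of all genes higher in replicate 2 and 1.24% in replicate 1. Nfkbid, whose product is another nuclear IkB protein, stood at 40.5 and 35.6 RPKM, above all inhibitors among the members except Nfkbia. Bcl3, a nuclear IkB protein that partners the processed products of Nfkb1 and Nfkb2, stood at 3.58 and 6.84 RPKM, a ratio of 1.91. Nkrf, a repressor of NF-kB targets, stood at 12.0 and 6.33 RPKM. Nfkbid and Bcl3 were the 2 of these 6 genes whose promoters held the consensus motif, against 5.14% of all genes of the promoter table.

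The kinase list also holds some adaptors and a regulatory subunit of these kinases. All 14 of its genes were detected, against 43.5% of all genes in the table, with a median log2 ratio of 0.04. The catalytic IKK subunits Chuk and Ikbkb stood at 22.5 and 19.2 RPKM and at 15.5 and 17.9 RPKM, and the regulatory subunit Ikbkg at 15.4 and 17.0. Tab2, an adaptor of the kinase TAK1, was the highest of the list at 163 and 169 RPKM. Map3k14, which encodes NIK, the kinase of the alternative arm, was the single kinase gene past 2-fold, with 2.21 and 4.64 RPKM. Map3k8, whose product is held by the Nfkb1 precursor, stood at 2.81 and 2.88.

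Of 23 adaptor and ubiquitin ligase genes 22 were detected, against 43.5% of all genes in the table, with a median log2 ratio of -0.02. Traf1, a textbook NF-kB target, was the exception at 0.656 and 1.36 RPKM. That call rests on the length used for Traf1, whose smallest value was 6617 bases, against 3436 in its longest annotated transcript. Traf1 and Traf5 (1.29 and 2.91) were the genes of this list past 2-fold. Traf3, which keeps NIK unstable, stood at 33.9 and 24.0 RPKM and was the gene of the list with the lowest log2 ratio, -0.48. Birc3, another feedback target, stood at 13.2 and 19.1. Card9, the adaptor of fungal receptors in myeloid cells, led the list at 171 and 130 RPKM.

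Among deubiquitinases and other brakes 13 of 14 were detected, against 43.5% of all genes in the table, with a median log2 ratio of 0.04. N4bp1, Tax1bp1 and Sqstm1 were the highest at 161, 122 and 67.9 RPKM in replicate 1 and 146, 105 and 69.7 in replicate 2. Cyld, a deubiquitinase that acts beside Tnfaip3, stood at 49.8 and 55.3 RPKM, several times the level of Tnfaip3. Tnip3, whose product binds that of Tnfaip3, was the gene past 2-fold, at 5.61 and 12.1 RPKM. Promoters were at hand for 10 genes of this list, and 5 of them held the consensus motif: Tnip1, Tnip3, Tax1bp1, Cyld and Sqstm1. Over all genes of the promoter table the share was 5.14%.

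Receptor and ligand genes were mostly higher in replicate 2. Of 19 receptor genes 14 were detected, against 43.5% of all genes in the table, with a median log2 ratio of 0.48. Of the 15 above the minimum mean 13 were higher in replicate 2, against 44.1% of all genes. Tnfrsf1a, the main receptor of TNF, was the highest and close to equal at 180 and 189 RPKM. Cd14, the co-receptor for lipopolysaccharide, stood at 12.8 and 51.3 RPKM, and Tlr4, the receptor it serves, at 16.9 and 22.1. Tnfrsf11a (0.375 and 2.47), Il18r1 (8.03 and 17.0) and Nod2 (1.21 and 4.02) were the others past 2-fold. Of 11 ligand genes 5 were detected, near the share of 43.5% of all genes in the table. They were Tnf, Ltb, Tnfsf13b, Tnfsf14 and Il1b. Tnf stood at 6.20 and 9.03 RPKM. Il1b stood at 3.10 and 16.3 and Il1a at 0.686 and 6.65, while Cd40lg was listed at 0 in both libraries.

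**Figure D4:**
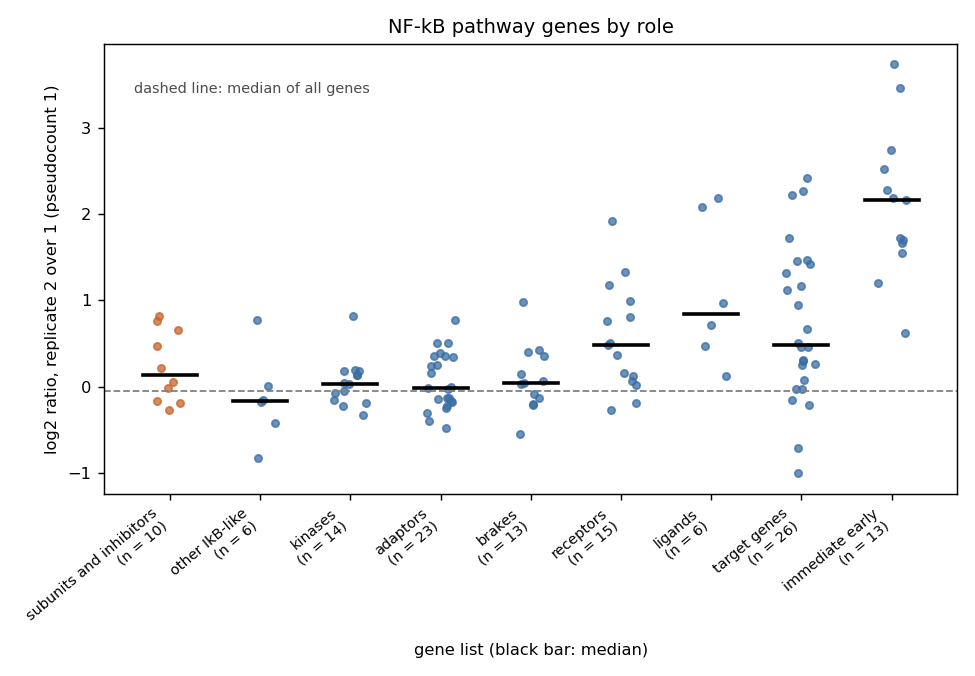
Log2 ratio between the libraries (replicate 2 over replicate 1, pseudocount of 1) for each gene above the minimum mean of 1 RPKM in the NF-kB subunit and inhibitor set (orange) and in 8 lists sorted by role (blue), with a black bar at the list median. Kinases, adaptors and brakes centre at 0.04, -0.02 and 0.04, receptors and target genes at 0.48, ligands at 0.84 and immediate early genes at 2.16.

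Genes known as NF-kB targets in myeloid cells, with the members left out, were mostly higher in replicate 2. All 31 were found, and 23 of them were detected, against 43.5% of all genes in the table. Of the 26 above the minimum mean 20 were higher in replicate 2 (76.9%, against 44.1% of all genes). The median log2 ratio of these 26 was 0.48. The 2-fold rule called 10 of these 26 in the direction of replicate 2 (38.5%, against 7.65% of all genes). Gadd45b (56.3 and 27.6 RPKM) was the 1 called in the direction of replicate 1, against 1.24% of all genes. Ccl2 stood at 22.5 and 112 RPKM, Nlrp3 at 4.21 and 23.2 and Ier3 at 48.5 and 132. Other targets were near equal, such as Sod2 at 12.5 and 11.1 RPKM, Irf1 at 12.0 and 10.2 and Ccrl2 at 4.48 and 4.36. Promoters were at hand for 24 of these genes, and 11 of them held the consensus motif (45.8%, against 5.14% of all genes of the promoter table). Among genes with a promoter at hand, the motif was held by 1 of 10 in the kinase list and 2 of 19 adaptors. It was held by 2 of 15 receptors, 1 of 10 ligands and 3 of 10 immediate early genes.

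Other programmes differed between the libraries beside the members, and their part in the differences of Relb, Nfkbie, Nfkbiz and Tnfaip3 was not tested. For the counts that follow, the shares over all genes were 44.1% higher in replicate 2 and 7.65% at 2-fold or more. All 13 immediate early genes were higher in replicate 2, 12 of them 2-fold or more, with a summed level of 245 and 819 RPKM. Egr1 stood at 7.06 and 106 RPKM. Of the monocyte and macrophage markers above the minimum mean, all 5 and all 8 were higher in replicate 2, with median log2 ratios of 2.43 and 1.10, as were all 7 mast cell markers at 5.54. MHC class II markers, all 5 of them 2-fold or more higher in replicate 2, had a median of 3.10 and summed to 163 and 1189 RPKM. All 4 basophil markers were higher in replicate 2, with a median of 1.07 and sums of 1022 and 2014 RPKM. Of the 9 neutrophil markers 4 were higher in replicate 2 and 5 in replicate 1, with a median of -0.28, and Camp (1016 and 2115 RPKM) was the 1 past 2-fold. Among 11 reference genes, Pgk1 was the 1 past 2-fold, and the list median was -0.03.

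Some members share bases with other genes, and the strand setting of the authors' counting is not given in the sources used here. In GENCODE vM21 the exons of Nfkb2 overlap 299 bases of Psd on the other strand (2.17 and 2.20 RPKM) and 531 bases of a long noncoding RNA. Those of Nfkbib overlap 42 bases of Sirt2 (45.3 and 44.5 RPKM) and 314 bases of Ccer2, also on the other strand. Reads there cannot be told apart without strand. No exon overlap was found for the other 8 genes.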

How the data were processed

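RNA-seq values of 2 libraries were used. The authors deposited RPKM values, with a column for each of the 2 libraries. Per the submitters' processing notes the tools were Trimmomatic 0.32, TopHat2, HTSeq and edgeR and the build was mm9. Their settings, the annotation and the gene lengths were not given in the sources used here. Column names match the titles of the samples and gave the assignment. Of 24015 rows, 27 named as dates were left out. The members and lists were chosen with earlier results of these data known. Named genes are the 10 members, the 3 highest and 2 most different in each direction of each pathway list, and genes that small counts refer to, and others were chosen after their values were seen. Ratios use log2(RPKM + 1), which understates differences of low genes.

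Library sizes came from 382 genes that share 1 ratio of replicate 1 over replicate 2, 0.962 (relative tolerance 1e-05), and from 49 of 1429 genes with 1 annotated transcript, and may include a normalisation factor. For all 10 members a length up to 20000 bases was found that makes both values whole reads, within 1e-06 reads. Intervals are 95% exact binomial (Clopper-Pearson) intervals of the read split and cover counting error alone, since reads carry no molecular identifiers. The read search was tested on simulated data with the true library sizes supplied. For 300 of 300 genes the numbers found were the true ones or these divided by a common factor. The estimate of the library sizes was not part of that check. Python 3.11.15, numpy 2.4.6, pandas 2.3.3 and scipy 1.17.1 were used. Promoters of Nfkb1, Relb and Nfkbiz were not used here. Fam105b and Adgre1 did not match the table.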

Additional observations from a re-analysis of the deposited data

How the results depend on the processing

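No paired analysis was possible because the labels hold 1 group of 2 libraries. All 10 members stayed detected in each library alone and with equal library sums, and 9 with a minimum of 5 RPKM. The median log2 ratio of the members stayed positive, from 0.05 with a minimum mean of 5 RPKM to 0.24 with the mean over members. The count of members at least 2-fold higher in replicate 2, 0 as reported, was 1 (Relb, at 2.05-fold) with the median of all genes set to 0 and 3 at a threshold of 1.5-fold. The difference of IkB genes and subunits, -0.26, was -0.078 with medians in place of means, with opposite signs in the 2 libraries, and reversed to 0.38 with lengths of the longest GENCODE vM21 transcript. That choice raises the IkB genes Nfkbia, Nfkbib and Nfkbie. Among the subunits it raises Nfkb2, Rela and Rel, which works the other way, and lowers Nfkb1 and Relb, which works the same way. The difference of classical and alternative subunits, 2.84, was 3.68 with medians. In single libraries the 3 contrasts ranged from -0.29 to -0.24 (IkB genes minus subunits), from 2.54 to 3.14 (classical minus alternative) and from 2.63 to 2.87 (Rela minus Rel). Depth does not limit the levels of the members, the lowest of which rests on at least 197 reads, and the number of libraries does.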
